A study of Mus musculus with 11 samples.

Results

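The 10 genes described here encode the core of the TGF-beta pathway outside the cell: the ligands Tgfb1, Tgfb2 and Tgfb3, the receptors Tgfbr1, Tgfbr2 and Tgfbr3, the latency proteins Ltbp1, Ltbp2 and Ltbp3, and Tgfbi, a secreted matrix protein named for its induction by TGF-beta. They were chosen by symbol, and all 10 were found among the 53465 genes counted. RNA was sequenced from mPFC CRF1+ neurons, cells of the medial prefrontal cortex that carry the corticotropin releasing factor receptor encoded by Crhr1 and that were sorted for green fluorescence from single adult male CRF1:GFP reporter mice at least 10 weeks old. The 6 naïve mice received pyrazole, an alcohol dehydrogenase inhibitor, and air, and the 5 withdrawn mice received ethanol with pyrazole and 5 to 6 weeks of chronic intermittent ethanol vapor, followed by 5 to 8 days of abstinence. Both groups therefore carried the reporter and received pyrazole. The question was which transcripts differ in these neurons after withdrawal from chronic ethanol.

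TGF-beta is secreted in a latent form, in which its own propeptide shields the ligand and is tethered to the matrix by a latent TGF-beta binding protein (LTBP). Integrins, thrombospondin and proteases release it, after which the ligand brings together a type II receptor (Tgfbr2) and a type I receptor kinase (Tgfbr1), which phosphorylates Smad2 and Smad3. Tgfbr3, or betaglycan, is a co-receptor that presents ligand, in particular TGF-beta2. In brain, glial, vascular and meningeal cells are known sources of pathway components, and neurons also respond to the ligands.

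Gene counts ranged from 7351567 to 22244869 per mouse, so that 3 counts, used as the floor of detection, corresponded to 0.135 to 0.408 CPM (counts scaled to the library total). Such a floor covers counting error only, because the reads come from amplified cDNA. Withdrawn mice 2 and 4 had the largest shares of reads outside annotated exons (39.6% and 48.1%), and naïve mouse 5 had the fewest genes detected (15585). For withdrawn mice 3, 4 and 5 another label gives control, and the stated design has 5 control and 6 ethanol mice, so that comparisons were also made without these 3 mice. Crhr1 was present in every mouse, at 69.1 to 119 CPM in naïve and 42.2 to 136 CPM in withdrawn mice, and the excitatory marker Slc17a7, the vesicular glutamate transporter, at 896 to 1928 and 738 to 1797 CPM. The inhibitory markers Gad1 and Gad2 were also detected in every mouse (Gad1 at 11.2 to 325 CPM, Gad2 at 7.52 to 130 CPM). The microglial markers Cx3cr1 and P2ry12 did not exceed 1.69 CPM in any mouse, and the border macrophage markers Mrc1 and Cd163 did not exceed 2.21 CPM.

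No member passed the main test, edgeR's quasi-likelihood test with the thresholds of 0.05 for the Benjamini-Hochberg adjusted p and 0.6 for the size of the log2 change. Of the 9 members tested, 0 were called, where 0.00585% of all 17093 genes tested were called (1 gene). At an unadjusted edgeR p under 0.05, 5 members passed (Tgfb3, Tgfbr2, Tgfbr3, Ltbp3 and Tgfbi), all of them higher in withdrawn mice, where 5.00% of all genes did so in that direction. DESeq2 called 4 members higher (Tgfb3, Tgfbr2, Ltbp3 and Tgfbi), where 1.57% of the 21849 genes with an adjusted p were called higher. The fitted log2 fold change was above 0 for 8 of the 9 members, with a median of 1.36, whereas it was above 0 for 8852 of the 17093 genes, with a median of 0.02. Ltbp2 had too few counts to be tested by edgeR. The members were chosen with earlier results of these data known, so the shares over all genes are given as background and not as a test.

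**Figure D1:**
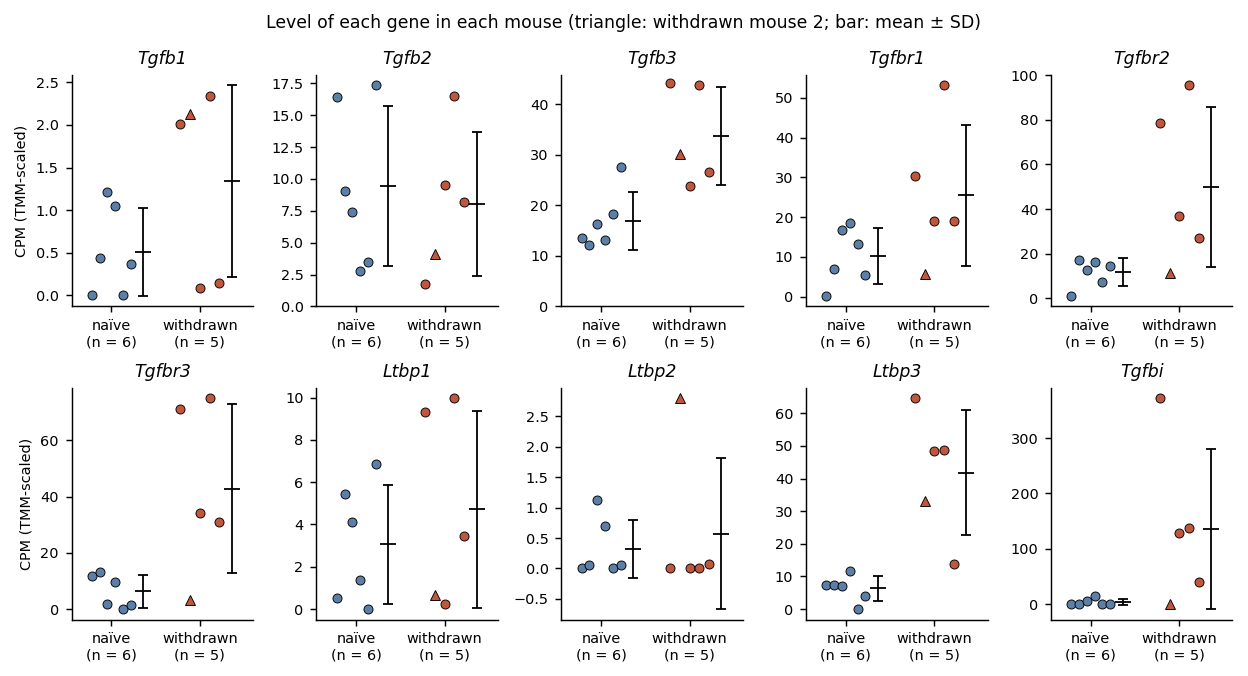
Level of each of the 10 genes in each mouse, in CPM scaled by TMM factors (linear axis, own range for each gene), with naïve mice in blue (n = 6) and withdrawn mice in red (n = 5), withdrawn mouse 2 as a triangle, and the mean ± SD beside each group. All 5 withdrawn mice lie above all naïve mice for Ltbp3, and 4 of 5 do for Tgfbr1, Tgfbr2, Tgfbr3 and Tgfbi.

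Among the ligands, Tgfb3 was the most abundant and the one with the smallest p. Tgfb3 stood at 12.2 CPM in the lowest naïve mouse, with a median of 14.9 and a highest value of 27.5 CPM. In withdrawn mice 1 to 5 it stood at 44.2, 30.1, 23.8, 43.9 and 26.7 CPM. The lowest withdrawn mouse was above 5 of 6 naïve mice, and the ranges overlapped through naïve mouse 6, which was the highest of its group. The edgeR log2 fold change was 1.00 ± 0.30 (SE), which is 2.00-fold, with an adjusted p of 0.319, and DESeq2 gave an adjusted p of 0.0381. A two-sided exact permutation test of the log2 CPM over all 462 assignments of the mice gave p = 0.00866, unadjusted, as 1 of 10 such tests. Of the 3383 exonic bases of Tgfb3 (chromosome 12, 86056745 to 86079041, minus strand, GRCm38), 257 overlap Gm48008 and 163 overlap Gm37804 on the other strand, and whether the counting used strand is not given in the sources used here.

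Tgfb2 and Tgfb1 differed by less than the spread between mice. Tgfb2, the isoform that depends most on betaglycan, ranged from 2.80 to 17.4 CPM in naïve mice (median 8.23) and was 1.73, 4.14, 9.53, 16.5 and 8.21 CPM in withdrawn mice 1 to 5. The groups overlapped over nearly the whole range, with a log2 fold change of -0.24 ± 0.64 (SE) and an edgeR adjusted p of 0.970. Tgfb1, the isoform best known from injury and immune regulation, had the fewest counts of the members tested, from 0 to 28 per mouse. It was listed at 0 in naïve mice 1 and 5, had a naïve median of 0.405 and a highest value of 1.22 CPM, and was 2.02, 2.13, 0.0934, 2.34 and 0.141 CPM in withdrawn mice 1 to 5. The withdrawn values thus fell into 3 mice above all naïve mice and 2 mice below the naïve median, and the log2 fold change of 1.36 ± 1.18 (SE) had an edgeR adjusted p of 0.878.

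All 3 receptors had a positive fitted change, and in each of them withdrawn mouse 2 stood within the naïve range while the other 4 withdrawn mice stood above it. At least 4 of 5 withdrawn mice exceeded the highest naïve mouse in 5 members (the 3 receptors, Ltbp3 and Tgfbi), where 4.60% of all genes tested met this condition. Tgfbr2, the ligand-binding type II receptor, was 1.18 CPM in the lowest naïve mouse, 13.7 at the median and 17.4 in the highest. In withdrawn mice 1 to 5 it was 78.7, 11.2, 36.9, 95.5 and 27.2 CPM. The log2 fold change was 2.09 ± 0.61 (SE), or 4.26-fold, with an adjusted p of 0.298 in edgeR and 0.0403 in DESeq2, and the exact permutation p was 0.0217. Withdrawn mouse 4 alone held 38.3% of the summed withdrawn level.

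The sequence just upstream of Tgfbr2 is shown because it is the receptor that DESeq2 called. It is the 250 bases before the RefSeq start of the gene (GRCm38.p6, chr9:116175364-116175613, minus strand, written 5′ to 3′ along the gene), and capitals mark the single match to CAGAC, the SMAD box to which Smad3 and Smad4 bind.
Tgfbr2: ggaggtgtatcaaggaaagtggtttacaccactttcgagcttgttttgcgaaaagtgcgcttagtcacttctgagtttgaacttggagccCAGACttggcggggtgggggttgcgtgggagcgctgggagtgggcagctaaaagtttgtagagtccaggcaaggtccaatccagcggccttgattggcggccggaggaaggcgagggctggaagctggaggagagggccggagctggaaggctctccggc
Searched on both strands, CAGAC occurred in 42.2% of 32851 mouse windows of this length, so that a match is common. The GC box GGGCGG (32.7% of windows) and the AP-1 site TGANTCA (6.75% of windows) had no match in this window.

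Tgfbr1, the type I receptor kinase, was 0.215 CPM in naïve mouse 1, had a naïve median of 10.1 and reached 18.6 CPM. In withdrawn mice 1 to 5 it was 30.4, 5.82, 19.2, 53.2 and 19.0 CPM, so that withdrawn mice 3 and 5 lay only just above the highest naïve mouse. Its log2 fold change of 1.32 ± 0.73 (SE) passed neither test, with an adjusted p of 0.777 in edgeR and 0.523 in DESeq2. Tgfbr3 was listed at 0 in naïve mouse 5, had a naïve median of 5.70 and reached 13.1 CPM. In withdrawn mice 1 to 5 it was 71.1, 3.13, 34.1, 74.9 and 30.8 CPM. The log2 fold change was 2.76 ± 0.96 (SE), with an adjusted p of 0.459 in edgeR and 0.112 in DESeq2, and an exact permutation p of 0.0390. Of its 6545 exonic bases, 297 overlap Gm43422 on the same strand.

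Among the latency proteins, Ltbp3 separated the groups completely, whereas Ltbp1 and Ltbp2 did not. Ltbp3, which binds the latent complex of TGF-beta and promotes its secretion to the matrix, was listed at 0 in naïve mouse 5, had a naïve median of 7.34 and reached 11.6 CPM. In withdrawn mice 1 to 5 it was 64.5, 33.1, 48.5, 48.8 and 13.8 CPM. The lowest withdrawn mouse exceeded the highest naïve mouse, a pattern found in 0.690% of all genes tested (118 genes) and in 1 member. The log2 fold change was 2.72 ± 0.76 (SE), or 6.60-fold, with an adjusted p of 0.265 in edgeR and 0.0201 in DESeq2. The exact permutation p was 0.00433. Withdrawn mouse 2, low for the receptors, was therefore not low for Ltbp3, and the lowest withdrawn value was that of mouse 5.

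The window upstream of Ltbp3 (GRCm38.p6, chr19:5740650-5740899, plus strand, 250 bases before the RefSeq start) is shown as that of the member with complete separation. Capitals again mark the single CAGAC match, and neither the GC box nor the AP-1 site had a match.
Ltbp3: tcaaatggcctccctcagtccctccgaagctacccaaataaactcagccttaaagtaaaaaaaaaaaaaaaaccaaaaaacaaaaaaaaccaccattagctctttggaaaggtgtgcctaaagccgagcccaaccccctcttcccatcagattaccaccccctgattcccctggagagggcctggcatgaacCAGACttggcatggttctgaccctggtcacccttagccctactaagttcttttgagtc
The gene itself spans 5740904 to 5758532 on chromosome 19.

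Ltbp1, the first described of the binding proteins, was at most 6.85 CPM in naïve mice (median 2.76, none in naïve mouse 5) and was 9.29, 0.672, 0.234, 9.96 and 3.47 CPM in withdrawn mice 1 to 5. The withdrawn mice fell on both sides of the naïve median, with a log2 fold change of 0.62 ± 1.14 (SE) and an edgeR adjusted p of 0.957. Ltbp2, which associates with elastic fibres and does not bind latent TGF-beta, had no counts in 3 withdrawn and 2 naïve mice. Its highest level was 2.80 CPM in withdrawn mouse 2 (25 counts), which held 97.5% of the summed withdrawn level, and its highest naïve level was 1.12 CPM. Of the exonic bases of Ltbp2, 9.34% overlap the antisense gene D030025P21Rik.

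Tgfbi had the largest fitted change of the members and the widest spread among withdrawn mice. The protein is a matrix adhesion molecule that binds collagens and integrins. In naïve mice Tgfbi ranged from 0.0617 to 14.3 CPM with a median of 0.919 CPM. In withdrawn mice 1 to 5 it was 372, 0, 129, 138 and 39.9 CPM, which corresponds to 5158, 0, 2758, 1123 and 564 counts. The 4 withdrawn mice with counts were all above the highest naïve mouse, and withdrawn mouse 2, with no count, was below the lowest, whose level rests on 1 count. The log2 fold change was 5.19 ± 1.38 (SE), with an adjusted p of 0.240 in edgeR and 0.0430 in DESeq2. The exact permutation test, which compares mean log2 CPM and so includes the withdrawn mouse at 0, gave p = 0.0693. Without withdrawn mouse 2, edgeR called Tgfbi, with a log2 fold change of 5.50 and an adjusted p of 0.0303, and it was the only member called in that fit. Its log2 fold change ranged from 4.36 without withdrawn mouse 1 (edgeR adjusted p = 0.717) to 6.53 without naïve mouse 4 (edgeR adjusted p = 0.209), and the 10 other fits with 1 mouse left out did not call it.

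The sequence before the first annotated exon of Tgfbi is shown because this member had the largest fold (GRCm38.p6, chr13:56609336-56609522, plus strand, 187 bases). Capitals mark matches to CAGAC, here on the other strand as GTCTG, in 2 places, and 1 match to the GC box.
Tgfbi: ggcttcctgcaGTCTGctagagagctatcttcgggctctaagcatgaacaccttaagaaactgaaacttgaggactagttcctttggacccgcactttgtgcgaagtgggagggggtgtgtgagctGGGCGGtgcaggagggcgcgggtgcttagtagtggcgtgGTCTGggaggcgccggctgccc
None of the matches overlapped, and no AP-1 site was found. Over the 10 windows available for 8 members, 8 held a CAGAC match and 4 a GC box, and no window held the AP-1 site. These matches describe the letters of the windows and say nothing of binding in these cells.

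**Figure D2:**
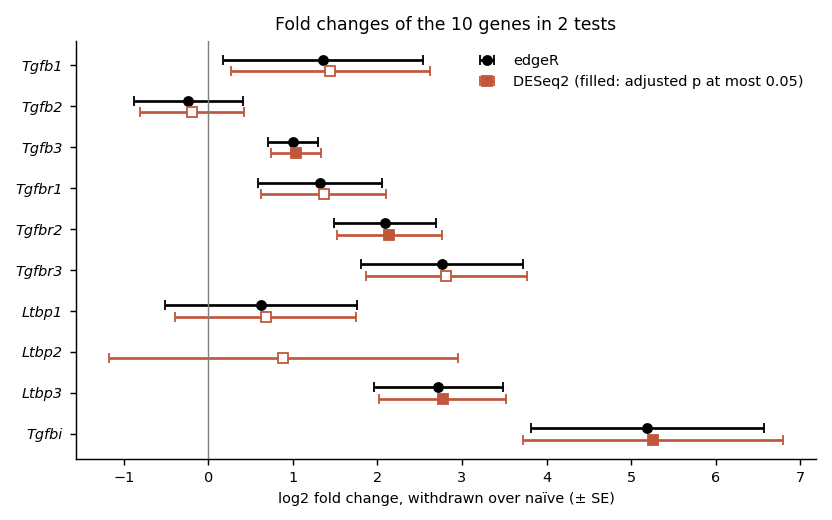
Log2 fold change of each gene, withdrawn over naïve, with its SE, from edgeR (black circles; Ltbp2 was not tested) and DESeq2 (red squares, filled where the adjusted p was at most 0.05). The estimates lie close together for the 9 genes fitted by both, and the 4 filled squares are Tgfb3, Tgfbr2, Ltbp3 and Tgfbi.

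The estimates of edgeR and DESeq2 were close, as the plot of both shows, and the tests differed in their calls. For Tgfbi they were 5.19 and 5.26 on the log2 scale, and for Tgfb3 1.00 and 1.03. Without the Cook's distance cutoff and independent filtering, DESeq2 called only Ltbp3 among the members (adjusted p = 0.0374). Without the 3 mice whose labels conflict, the edgeR log2 fold changes were 1.09 for Tgfb3, 1.92 for Tgfbr2, 2.53 for Tgfbr3, 2.91 for Ltbp3 and 5.63 for Tgfbi. They were 1.95 for Tgfb1, -1.75 for Tgfb2, 0.80 for Tgfbr1 and 0.68 for Ltbp1, and no member was called (smallest edgeR adjusted p = 0.647). The exact permutation p, unadjusted, was then 0.0357 for Tgfb3, the smallest value that the 28 possible assignments allow. It was 0.0714 for Tgfb1 and larger for every other member, among them 0.179 for Ltbp3, 0.393 for Tgfbr2 and 0.321 for Tgfbr3. Ltbp3 was still above every naïve mouse in withdrawn mice 1 and 2 (64.5 and 33.1 CPM, against at most 11.6 CPM). Its permutation test compares mean log2 CPM and so includes naïve mouse 5, which had no counts. With 2 withdrawn mice left in that comparison, one of them mouse 2, the levels of Tgfbr2, Tgfbr3 and Tgfbi rest on withdrawn mouse 1.

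Compared per exonic length, as CPM per kilobase of exon (RPKM), the order of the members differed between the groups in its upper part. In naïve mice Tgfb3 was the highest at 4.98 ± 1.68 RPKM (SD, n = 6) and was above Tgfb2, the next at 1.63 ± 1.08 RPKM, in 6 of 6 mice. Tgfb2, Tgfbr1 (1.56), Tgfbr2 (1.43), Tgfbi (0.974), Tgfbr3 (0.963) and Ltbp3 (0.697 RPKM) followed with differences smaller than their SDs, each above its next neighbour in only 3 or 4 of 6 mice. Ltbp1 (0.286), Tgfb1 (0.102) and Ltbp2 (0.0395 RPKM) were the lowest. In withdrawn mice Tgfbi was the highest on average at 36 ± 38.3 RPKM (SD, n = 5) and exceeded Tgfb3, at 9.97 ± 2.86 RPKM, in 4 of 5 mice. Tgfb3 exceeded Tgfbr3 (6.54 RPKM) in all 5 mice. Tgfbr3, Tgfbr2 (6.10) and Ltbp3 (4.60 RPKM) each exceeded their next neighbour, down to Tgfbr1 (3.90 RPKM), in 3 of 5 mice, and did not differ beyond their spread. Tgfbr1 exceeded Tgfb2 (1.38 RPKM) in all 5. The 3 lowest genes were the same as in naïve mice, with Ltbp1 at 0.442, Tgfb1 at 0.266 and Ltbp2 at 0.0701 RPKM.

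**Figure D3:**
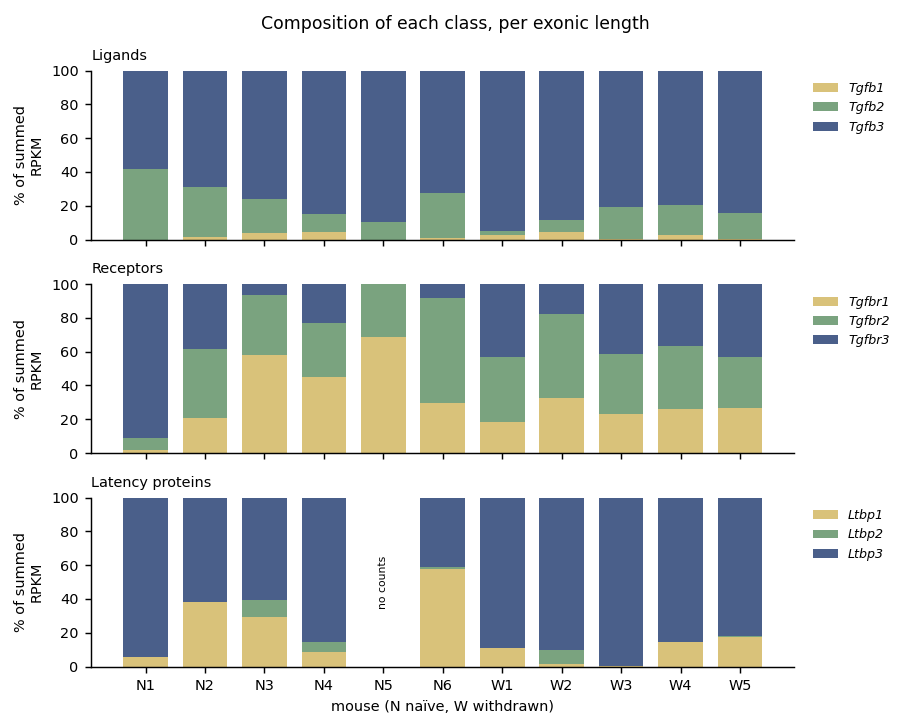
Share of each gene in the summed RPKM of its class in each mouse (stacked bars to 100%; N naïve, W withdrawn). Tgfb3 forms the largest share of the ligands in all 11 mice and Ltbp3 that of the latency proteins in all 5 withdrawn mice, and naïve mouse 5 had no counts for any latency protein.

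Within the classes, Tgfb3 made up the largest share of the ligands in all 11 mice, from 58.5% to 89.9% in naïve mice (median 74.2%) and from 79.7% to 94.9% in withdrawn mice (median 84.5%). The receptors changed places from mouse to mouse. Tgfbr1 had the largest share in 3 naïve mice, Tgfbr2 in 2 and Tgfbr3 in 1, whereas in withdrawn mice Tgfbr3 led in 3 and Tgfbr2 in 2. The summed RPKM of the 3 receptors had a median of 3.65 in naïve and 12.7 in withdrawn mice, with overlapping ranges (1.97 to 6.33 and 2.74 to 31.3). Ltbp3 made up 41.3% to 94.3% of the latency proteins in the 5 naïve mice with counts and 82.0% to 99.6% in withdrawn mice. The summed latency proteins did not overlap between the groups, at 0 to 1.49 RPKM in naïve and 1.85 to 7.99 RPKM in withdrawn mice, as the separation of Ltbp3 already implies.

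Markers of fibroblasts, the matrix-producing cells of meninges and vessels, moved with several members. The summed level of 10 fibroblast markers was 9.14 to 31.9 CPM in naïve mice and was 502, 15, 356, 587 and 138 CPM in withdrawn mice 1 to 5, so that withdrawn mouse 2 lay in the naïve range. Of the 8 markers tested, 8 had a higher fitted level in withdrawn mice, 5 of them at an unadjusted edgeR p under 0.05 and none called. Most of the sum came from Ogn and Islr, which reached 217 and 247 CPM in withdrawn mice, whereas Slc6a13 and Lum did not exceed 6.94 CPM in any mouse. Slc6a13 was at 0 in withdrawn mice 3 and 5, and Lum was also at 0 there. In bulk RNA, more cells of a type and more RNA per cell cannot be told apart.

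**Figure D4:**
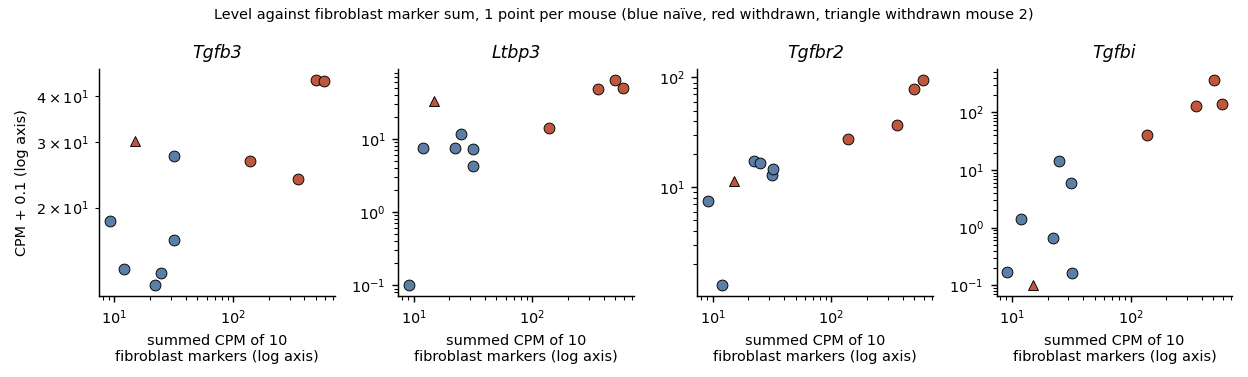
CPM + 0.1 of Tgfb3, Ltbp3, Tgfbr2 and Tgfbi against the summed CPM of 10 fibroblast markers in each mouse (both axes log scale; blue naïve, red withdrawn, triangle withdrawn mouse 2). Withdrawn mouse 2 lies with the naïve mice on the marker axis, where it is low for Tgfbr2 and Tgfbi and above every naïve mouse for Ltbp3 and Tgfb3.

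The members differed in how they stood in withdrawn mouse 2, as the plot against fibroblast markers shows. Tgfbr2 (11.2 CPM), Tgfbr3 (3.13 CPM) and Tgfbi (0 CPM) were within or below the naïve range in this mouse, as the marker sum was. Ltbp3 (33.1 CPM) and Tgfb3 (30.1 CPM) were above every naïve mouse in it. A further fit took the mean log2 CPM of the 10 fibroblast markers, and not their summed CPM, as a covariate. In it the edgeR log2 fold change was 2.30 for Tgfbi, 0.84 for Tgfbr2, 1.02 for Tgfbr3 and 0.40 for Tgfbr1. The log2 fold change was 2.15 for Ltbp3 and 0.82 for Tgfb3. None of the members was called in that fit, where the smallest adjusted p was 0.974, and the part of fibroblast RNA in the differences was not tested further.

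Some markers of other cell types shared the pattern of the fibroblast sum, and others did not. The summed level of 10 astrocyte markers was 320 to 549 CPM in naïve mice and 257 to 1399 CPM in withdrawn mice, with 4 withdrawn mice above the naïve range and mouse 2 below it. Of the 9 astrocyte markers tested, 4 had a higher and 5 a lower fitted level, and at an unadjusted edgeR p under 0.05 there were 4 higher and 1 lower. The connexins Gja1 and Gjb6 and the tissue factor gene F3 were at most 31.9, 17.4 and 27.8 CPM in naïve mice. Gja1 in withdrawn mice 1 to 5 was 309, 6.38, 217, 273 and 129 CPM and Gjb6 was 328, 0, 184, 327 and 92.7 CPM, while F3 was 140, 0.112, 147, 394 and 73.4 CPM. These 3 genes were thus above the naïve range in every withdrawn mouse but mouse 2, as Tgfbr2, Tgfbr3 and Tgfbi were. Aqp4 and Gfap did not exceed 7.99 and 4.55 CPM in withdrawn mice and reached 10.6 and 41.6 CPM in naïve mice. Microglial markers summed to 14.2 to 30.8 and 20.6 to 51.1 CPM and border macrophage markers to 0 to 10.6 and 1.77 to 17.1 CPM, each with 3 withdrawn mice above the naïve range. The sums overlapped broadly for endothelial markers, at 14.2 to 855 CPM in naïve and 99.5 to 879 CPM in withdrawn mice, with Cldn5 at up to 115 and Pecam1 at up to 64.8 CPM. They overlapped also for mural cells (0.677 to 184 and 14 to 227 CPM), with Pdgfrb at up to 15.3 CPM in naïve and 84.5 CPM in withdrawn mice and Rgs5 at up to 54.0 and 31.8 CPM. Oligodendrocyte markers summed to 135 to 276 and 109 to 267 CPM, with Mbp detected in every mouse at 59.1 to 180 CPM. Inhibitory markers summed to 85.1 to 928 and 32.1 to 730 CPM. The 8 markers of excitatory CRF1 neurons include Crhr1 and the general neuronal genes Rbfox3 and Snap25. Snap25 alone was at 4714 to 7821 CPM in naïve and 3169 to 5080 CPM in withdrawn mice. The 8 summed to 7473 to 9900 CPM in naïve mice and to 6556, 7473.5, 7437, 4686 and 7843 CPM in withdrawn mice 1 to 5. Withdrawn mice 1, 3 and 4 were thus below the naïve range, and none was above it. Of the 8, 7 had a lower fitted level, 1 of them at an unadjusted edgeR p under 0.05 and none called. The part of these cell types in the levels of the members was not tested.

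The wider pathway was read from 100 genes in 7 lists, of which 84 were tested and 0 were called by edgeR. At an unadjusted edgeR p under 0.05, 22 were higher, where 5.00% of all genes were, and 1 was lower. DESeq2 called 10 of the 90 with an adjusted p, all higher, where 1.57% of all genes were called higher. The median log2 fold change of the 84 genes was 0.27, against 0.02 over all genes. These lists too were chosen with earlier results of the data known, so their counts beside the shares over all genes are no test of the lists.

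Of the 14 activation genes tested, 13 had a positive log2 fold change and 5 were higher at an unadjusted edgeR p under 0.05, with a median of 0.60. Thbs1, thrombospondin 1, which opens the latent complex, averaged 0.774 ± 1.74 CPM in naïve and 74.0 ± 68.0 CPM in withdrawn mice (SD, n = 6 and 5), with a log2 fold change of 6.47, an edgeR adjusted p of 0.137 and a DESeq2 adjusted p of 0.0510. It had no count in withdrawn mouse 2. Itgb1, the integrin beta 1 chain, was 45.4 ± 14.6 and 153 ± 89.8 CPM (log2 fold change 1.75, edgeR adjusted p = 0.118, DESeq2 adjusted p = 0.00280). Mmp14, a membrane protease of the matrix, was 0.960 ± 1.28 and 30.5 ± 24.2 CPM (log2 fold change 4.94, edgeR adjusted p = 0.167, DESeq2 adjusted p = 0.000736).

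Among 7 accessory receptors 4 had a positive value and 1, Bambi, a pseudoreceptor without kinase activity, had an unadjusted edgeR p under 0.05 (log2 fold change 1.89, edgeR adjusted p = 0.510). Cd109, a membrane antagonist of the receptors, had a log2 fold change of 1.82, and Fkbp1a, which holds the type I receptor inactive, one of -0.33. The 7 transducers had a median of -0.05. Zfyve9, the anchor that brings Smad2 to the receptor, was the only one at an unadjusted p under 0.05, with a log2 fold change of -0.71 and an edgeR adjusted p of 0.501. Smad2 stood at -0.24 and Map3k7, the kinase TAK1, at 0.22. None of the 11 brakes on signalling had an unadjusted edgeR p under 0.05, with Ski at 0.44, Tgif1 at 1.93 and the inhibitory Smad6 at 1.84.

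Of the 14 genes listed as known targets of TGF-beta, 12 had a positive log2 fold change and 7 were higher at an unadjusted edgeR p under 0.05, with a median of 1.89. Over all genes 8852 of 17093 had a positive value and 5.00% were higher at that p. Col1a1 and Col1a2, the chains of fibrillar collagen I, averaged 165 ± 145 and 292 ± 268 CPM in withdrawn mice against 5.58 ± 6.60 and 11.2 ± 16.1 CPM in naïve mice (log2 fold changes 4.88 and 4.71, edgeR adjusted p = 0.157 and 0.273, DESeq2 adjusted p = 0.0107 and 0.0630). Thbs2, a matrix thrombospondin, was 71.6 ± 44.8 against 4.79 ± 4.56 CPM (log2 fold change 3.91, edgeR adjusted p = 0.133, DESeq2 adjusted p = 0.00114). In withdrawn mouse 2 these 3 genes were at 3.02, 1.90 and 10.4 CPM, within the naïve range. Of the 7 genes, Id3 encodes a transcriptional inhibitor, and Ccn1, Col1a1, Col1a2, Col3a1, Fn1 and Thbs2 encode secreted matrix proteins, which fibroblasts are known to make.

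In the rest of the superfamily, 13 of 19 ligands and antagonists had a positive value, 7 of them with an unadjusted edgeR p under 0.05. Bmp4, a bone morphogenetic protein, was 1.96 ± 1.96 CPM in naïve and 32.3 ± 20.7 CPM in withdrawn mice (log2 fold change 4.02, edgeR adjusted p = 0.129, DESeq2 adjusted p = 0.000229) and exceeded all naïve mice in 5 of 5 withdrawn mice. Fstl1, a secreted follistatin-like glycoprotein, had a log2 fold change of 2.71 (edgeR adjusted p = 0.164, DESeq2 adjusted p = 0.00350), and Bgn, the proteoglycan biglycan, one of 4.14 (edgeR adjusted p = 0.256, DESeq2 adjusted p = 0.0962). The 12 other receptors of the superfamily had a median of -0.11, with Bmpr1a, a type I receptor for bone morphogenetic proteins, at 1.42, its co-receptor Rgmb at 0.70 and Hfe2, the co-receptor hemojuvelin, at 1.69 (edgeR adjusted p = 0.395, 0.545 and 0.865).

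**Figure D5:**
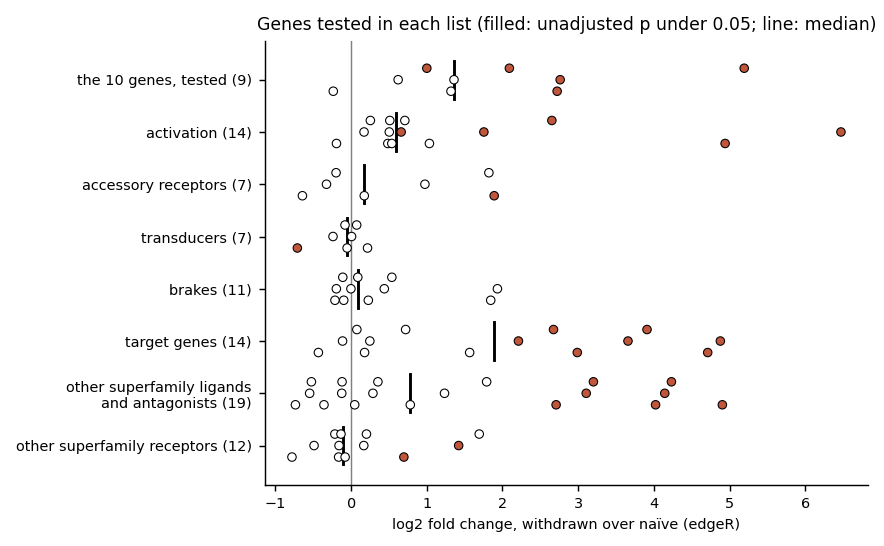
Log2 fold change (edgeR, withdrawn over naïve) of each tested gene in the member list and the 7 pathway lists, with the number tested in brackets, filled points for an unadjusted p under 0.05 and a line at the median. The transducers lie between -0.71 and 0.22, whereas the target genes reach 4.88 and the activation genes 6.47.

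The genes whose levels followed those of the members most closely were found from Pearson's r of log2 CPM over the 11 mice after the mean of each group was removed, among 17092 genes. These values describe 11 libraries that share depth and quality, and the highest of so many genes are high in any data. For Tgfbr1, Tgfbr2, Tgfbr3, Ltbp3 and Tgfbi a single mouse lay far from the rest of its group. How far r rests on that mouse was not tested. Tgfbi was most like Cldn11 (r = 0.980), which is one of the oligodendrocyte markers, and Adamtsl3 (r = 0.977). Ltbp3 was most like Lmln and Adamts16 (0.984 and 0.979). Tgfbr2 was most like Akap12 and Ice2 (0.967 and 0.952), Tgfbr3 like Hipk4 and Qtrt1 (0.975 and 0.974), and Tgfbr1 like Phf23 and Krt9 (0.970 and 0.956). Tgfb3 had the lowest such values, with Tmed1 at 0.864 and Rnaset2a at 0.812. Tgfb2 was most like Slc13a4, one of the fibroblast markers, and Emp2 (0.947 and 0.920). Tgfb1 was most like Slc26a3 and Sall4 (0.982 and 0.973) and Ltbp1 like Gm28791 and Cyyr1 (0.968 and 0.954).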

How the data were processed

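RNA from sorted mPFC CRF1+ cells of 6 naïve and 5 withdrawn mice, 1 library per mouse, was sequenced as 75 nt reads. The authors trimmed the reads, mapped them with STAR to GRCm38 (Ensembl release 91) and counted them with HTSeq, and the deposited values are raw counts per gene. Reads not assigned to a gene (18.9% to 58.0% per mouse) were left out. Groups came from titles and treatment. Symbols, lengths and exons were taken from GENCODE M21 on the same assembly, with a symbol for 53360 of 53465 genes, and upstream sequences from RefSeq on GRCm38.p6, which gave 10 windows for 8 members (none for Tgfb3 and Tgfbr3).

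edgeR 4.0.16 (R 4.3.3) was run on all genes with TMM factors, filterByExpr (minimum count 10, total 15), the quasi-likelihood test and Benjamini-Hochberg adjustment, without covariates. The SE is the log2 fold change over the square root of F. CPM used TMM-scaled library sizes, log2 CPM a prior count of 2, and RPKM the union exon length. Single values were compared by two-sided exact permutation tests, which cannot go below 0.002165. Alternatives were DESeq2 1.42.0, limma 3.58.1 (voom), other factors, filters, thresholds, covariates, a replicate block and each mouse left out. Scripts were tested on simulated data.

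The members and lists were chosen with earlier results of these data known. Named were all members, the 3 genes of smallest p in each pathway list, the first 2 genes of each marker list, and the 2 genes most like each tested member. Some items that the rule names are not reported here. Ogn, Islr, Gja1, Gjb6, F3, genes of overlapping exons and other genes listed beside a count were named after their values were seen, as were the fits without withdrawn mice 2 and 4 together. No 2 libraries were alike within counting noise (chi-square per degree of freedom at least 25.6 within groups).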

Additional observations from a re-analysis of the deposited data

Results flagged for a closer look

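Over the 10 genes and both groups, 20 sets of log2 CPM values were searched for a value distant from the rest by Dixon's criterion, and 6 such values were found, where chance gives about 1.0 (1 in 20 sets). Naïve mouse 1 was far below the other naïve mice for Tgfbr1 (log2 CPM -1.48) and Tgfbr2 (0.41). Naïve mouse 5 was far below for Ltbp3 (-2.80, no counts). Withdrawn mouse 2 was far below the other withdrawn mice for Tgfbr3 (1.71) and Tgfbi (-2.80, no counts) and far above them for Ltbp2 (1.56). Naïve mouse 5 also had the fewest genes detected (15585), and withdrawn mouse 2 had 39.6% of its reads outside exons. The part of these library traits in the flagged values was not tested. Without naïve mouse 5 the edgeR log2 fold change of Ltbp3 was 2.46 ± 0.41 (SE), with an adjusted p of 0.0567. Its log2 CPM difference was then 2.34, against 3.28 with all mice. With each mouse left out, the edgeR adjusted p of Ltbp3 ranged from 0.0567 to 0.753.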

How the results depend on the processing

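The count of 0 called members became 4 with DESeq2 (Tgfb3, Tgfbr2, Ltbp3, Tgfbi), 1 with DESeq2 without both the Cook cutoff and independent filtering (Ltbp3), 1 with no filter (Tgfbi, adjusted p = 0.0345), and 0 to 1 with each mouse left out, 1 (Tgfbi) without withdrawn mouse 2. It was 0 under the other alternatives. Pathway genes called, 0 with edgeR, were 10 with DESeq2, 9 without its cutoff and filtering, 10 with no filter, 2 with 10 counts in every mouse, 2 with genes detected as a covariate, 1 without withdrawn mice 2 and 4, and 0 to 9 with each mouse left out (9 without withdrawn mouse 2). Over all genes the 1 call became 362, 265, 137, 30, 26 and 62 under the same settings in that order, 37 with the adjusted p threshold at 0.1, and 0 to 193 with each mouse left out, 193 without withdrawn mouse 2 and 6 without naïve mouse 2. It was 0 without the 3 mice with conflicting labels and 0 with fibroblast markers as a covariate. The causes were not tested.

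Naïve and withdrawn mice that share a number are separate animals, and their correlations over 5 pairs ran from -0.20 to 0.18, with 1 of 5 withdrawn mice most like its own number. A fit with the replicate block called 0 members, 0 pathway genes and 0 of all genes, and gave Tgfb2 a log2 fold change of 0.044.

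Several fitted values changed sign, and not all of them were near 0. Tgfb2 (-0.24) was -1.75 without the mice of conflicting labels and -0.82 with fibroblast markers as a covariate, and ranged from -0.66 to 0.03 with each mouse left out, turning positive without naïve mouse 1 (0.0048) and naïve mouse 6 (0.033). Tgfb1, at 1.36 in the main fit, was -0.24 with voom quality weights. Ltbp1, at 0.62 in the main fit, was -0.48 with voom quality weights, -0.26 with genes detected as a covariate and -1.21 with fibroblast markers as a covariate. As log2 CPM differences with each mouse left out, Tgfb2 ranged from -0.62 to 0.17, Ltbp1 from -0.14 to 1.26 and Ltbp2 from -0.97 to 0.28, and Ltbp2 was 1.06 when the 3 mice of conflicting labels were left out. The log2 fold changes of Tgfb3, Tgfbr1, Tgfbr2, Tgfbr3, Ltbp3 and Tgfbi stayed above 0 under every alternative fitted. Ordered by the longest transcript, 7 of 10 members kept their place.

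DESeq2 and the unfiltered fit, which include genes of low counts, had a median log2 fold change over all genes of 0.25 and 0.17, against 0.02. The exact permutation p of Tgfbr3 was above 0.05 without 7 of the 11 mice in turn, and that of Tgfbr2 without withdrawn mouse 1 (0.0571) or 4 (0.0619). Without the 3 mice of conflicting labels the exact permutation p was 0.179 for Ltbp3, 0.393 for Tgfbr2 and 0.321 for Tgfbr3. For Tgfb3 it was 0.0357, the smallest value that 28 assignments allow. Ltbp3 was nonetheless above every naïve mouse in withdrawn mice 1 and 2. Tgfb1 and Ltbp2 had at most 28 counts in any mouse. Whether the mice share litters or days is not stated.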
